A study of Mus musculus with 4 samples.

Results

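Genes that set the muscle of the cardiac atria apart from that of the ventricles were followed in aortic RNA, through every probe set of the array that names exactly 1 of 10 member genes. The members are the atrial genes Myl7, Myl4, Sln and Nppa, the ventricular genes Myl2, Myl3 and Myh7, the myosin heavy chain Myh6 of both chambers, and the heart transcription factors Gata4 and Nkx2-5. They are held by 16 of 22626 probe sets, of which 6 are atrial, 5 ventricular, 2 of Myh6 and 3 of the transcription factors. Another 2 probe sets name both Myh6 and Myh7 and were left out of the members. The members were picked because heart muscle transcripts had been seen to differ between the strains on these same arrays. Strain differences below are therefore descriptions without a test.

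The RNA came from the aorta of female mice 6 weeks old, all of them apoE-/-, that is, without apolipoprotein E, which clears lipoprotein remnants from blood. The 4 groups were C57BL/6 and C3H/HeJ (C3H below), each on chow throughout or on a Western diet for the last 2 weeks, and each group had 1 array. How many animals gave the RNA of an array is not stated in the labels, and no mouse with a functional Apoe gene was analysed here. With no replicates the spread within a group is unknown, and precision is limited throughout by the small number of arrays.

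The working heart muscle of a mouse contains a motor, myosin, whose heavy chains carry small light chains, and the light chain genes differ by chamber. Atrial muscle uses Myl7 as regulatory and Myl4 as essential light chain, where ventricular muscle uses Myl2 and Myl3. Adult mouse atria and ventricles both rely on Myh6, while Myh7 is the slow heavy chain of the fetal ventricle and of slow skeletal muscle, which also uses Myl2 and Myl3. Atrial muscle further makes atrial natriuretic peptide (Nppa) and sarcolipin (Sln), a small membrane peptide that restrains the calcium pump. Gata4 and Nkx2-5 are transcription factors that act together on many heart genes. In rodents, muscle of atrial type also sleeves the large veins near the heart.

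The quantities below are quantile normalized signals, linear intensities of 1 probe set on 1 array. Sets are called brighter or dimmer and list signals are summed, but levels of different probe sets are not read as relative amounts of RNA. A floor was placed at the 40th percentile of all values, a signal of 83.6, since no detection calls came with the values. Signals at or under the floor are printed as measured, but have no order among themselves. A fold against such a signal is a lower bound, marked "at least", for which the dimmer signal was lifted to the floor. Counts past 2-fold use these lifted values. Smooth muscle markers, which define the aortic media, were above the floor on all arrays in 8 of 8 genes (Acta2, Tagln, Myh11, Cnn1 and others), and endothelial markers in 7 of 7 on 3 arrays and 6 of 7 on C57BL/6 chow. Brown fat markers were above it in 6 of 6 genes on every array. Of all 12393 genes, 8100 to 8170 were above it on an array. The C3H chow array stood somewhat apart, with correlations to the others of 0.868 to 0.904 over 8740 probe sets (log2 signals), against 0.913 to 0.931 among the other 3.

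The stretches upstream of 5 members are printed because atrial members were high or low together, while Myl3 shared their direction and Myh7 did not. Sequences are those of RefSeq, assembly GRCm38.p6, the 250 bases before an annotated start of the gene, 5′ to 3′ on the strand of the gene. Of the 10 members, 8 matched the promoter table (all but Sln and Gata4). Capitals mark matches, on either strand, to 6 motifs. GATA factors were searched with AGATAA and, as the other spelling, with TGATAA. For Nkx2-5 the letters were TNAAGTG, for Tbx5 they were AGGTGT, and for TEAD factors they were those of the MCAT element, CATTCC. The CArG box of serum response factor and the MEF2 site were searched by their consensus. No match overlaps another.
Myl7, chr11:5898783-5899032, minus strand: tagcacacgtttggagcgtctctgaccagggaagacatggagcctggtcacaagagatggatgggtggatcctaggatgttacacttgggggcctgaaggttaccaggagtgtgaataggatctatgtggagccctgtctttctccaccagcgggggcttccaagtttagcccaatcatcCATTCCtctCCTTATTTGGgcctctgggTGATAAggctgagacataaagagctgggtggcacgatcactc
Nppa, chr4:148000472-148000721, plus strand: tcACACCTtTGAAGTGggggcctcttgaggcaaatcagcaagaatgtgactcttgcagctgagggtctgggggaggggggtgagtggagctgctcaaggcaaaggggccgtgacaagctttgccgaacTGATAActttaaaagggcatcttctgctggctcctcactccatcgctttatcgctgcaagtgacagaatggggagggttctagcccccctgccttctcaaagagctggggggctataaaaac
Myl4, chr11:104550413-104550662, plus strand: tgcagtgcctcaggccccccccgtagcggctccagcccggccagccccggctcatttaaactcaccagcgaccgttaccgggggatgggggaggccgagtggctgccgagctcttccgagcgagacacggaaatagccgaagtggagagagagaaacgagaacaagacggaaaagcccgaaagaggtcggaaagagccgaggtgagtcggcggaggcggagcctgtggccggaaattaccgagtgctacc
Myl3, chr9:110763428-110763677, plus strand: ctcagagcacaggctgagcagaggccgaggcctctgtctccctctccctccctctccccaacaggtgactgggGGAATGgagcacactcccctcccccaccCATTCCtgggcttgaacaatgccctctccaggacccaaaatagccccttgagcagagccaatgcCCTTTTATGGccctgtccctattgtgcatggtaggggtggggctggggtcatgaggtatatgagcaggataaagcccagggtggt
Myh7, chr14:54994627-54994876, minus strand: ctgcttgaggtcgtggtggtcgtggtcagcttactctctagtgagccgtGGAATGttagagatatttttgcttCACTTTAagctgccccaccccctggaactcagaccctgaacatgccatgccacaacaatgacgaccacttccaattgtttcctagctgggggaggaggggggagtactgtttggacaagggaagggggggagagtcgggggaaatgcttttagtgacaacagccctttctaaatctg

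In the Myl7 stretch a CATTCC, a CArG box and a TGATAA lie within the last 70 bases before the start. Nppa holds a match to AGGTGT on the opposite strand, a TNAAGTG and a TGATAA, and Myl4 holds none of the 6 motifs. Myl3 has a CArG box and 2 CATTCC matches, 1 on each strand. The printed Myh7 window has a CATTCC and a TNAAGTG, both on the opposite strand. A second annotated start of Myh7 has another window (chr14:54994550-54994799), not printed, which holds none of the 6 motifs. Over all 32851 promoter windows of this length, a GATA match occurred in 16.6%, TNAAGTG in 10.1%, AGGTGT in 11.8%, CATTCC in 12.6%, a CArG box in 1.47% and a MEF2 site in 2.92%. The 8 members have 10 windows, as Myl2 and Myh7 each have a second start. Of the 10 windows, 3 held a GATA match (Myl7, Nppa and Myl2), 4 held CATTCC, 2 a CArG box and 0 a MEF2 site. A match describes the letters and is no evidence of binding, and its absence says only that these letters are not in the window.

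Atrial genes, each by its brightest probe set, were above the floor on both C57BL/6 arrays. Except for Nppa on Western diet, they were at or under it on both C3H arrays. The regulatory light chain Myl7 (probe set 1449071_at) had C57BL/6 signals of 2876 on chow and 2216 on Western diet, and C3H signals of 9.94 and 10.5. Both C57BL/6 arrays lie above the floor and both C3H arrays under it, a pattern shown by 2.53% of all probe sets. The C57BL/6 signal exceeded that of C3H at least 34.4-fold on chow and at least 26.5-fold on Western diet.

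Myl4, the essential light chain of the atria, gave the same picture in its brighter probe set (1422580_at), with 1575 and 1034 on C57BL/6 chow and Western and 21.7 and 58.7 on C3H chow and Western. C57BL/6 exceeded C3H at least 18.8-fold with chow and at least 12.4-fold with Western diet. Its dimmer set (1457126_at) read 148 and 172 in C57BL/6 and 24.5 and 41.7 in C3H. In both sets the C57BL/6 arrays were above the floor and the C3H arrays under it, a pattern shown by 2.53% of all probe sets. The dimmer set allows no more than at least 1.77-fold on chow and at least 2.06-fold on Western diet.

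Sarcolipin (Sln) was high in C57BL/6 in 1 of its 2 probe sets. That set (1420884_at) gave 2215 on chow and 1224 on Western diet in C57BL/6, against 14.8 and 5.79 in C3H, an excess in C57BL/6 of at least 26.5-fold with chow and at least 14.6-fold with Western diet. The other set (1420883_at) was under the floor on all 4 arrays, with signals of 19.0, 5.79, 42.3 and 6.06 on C57BL/6 chow, C57BL/6 Western, C3H chow and C3H Western. It carries no information on the strains, and the 2 sets disagree on whether Sln was measured at all.

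Nppa, the precursor of atrial natriuretic peptide, was the atrial member whose signal in C3H passed the floor. It read 548 and 487 on C57BL/6 chow and Western (1456062_at), 23.02 in C3H on chow but 120.5 with Western diet. Both C57BL/6 arrays are the higher on both diets, by at least 6.55-fold on chow and by 4.04-fold on Western diet, where both arrays were measured.

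Myh6, the main heavy chain of the adult mouse heart in all chambers, followed the atrial genes. Its brighter probe set (1448826_at) gave 2460.05 and 2463 in C57BL/6 on chow and Western diet, 73.8 on C3H chow and 131.6 on C3H Western. C57BL/6 exceeded C3H at least 29.4-fold with chow and 18.7-fold with Western diet, the latter from measured signals. The dimmer set (1417729_at) lay little above the floor in C57BL/6, at 110.3 on both diets, and at 13.9 and 6.63 in C3H, which bounds the fold at no more than at least 1.32 on either diet.

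**Figure D1:**
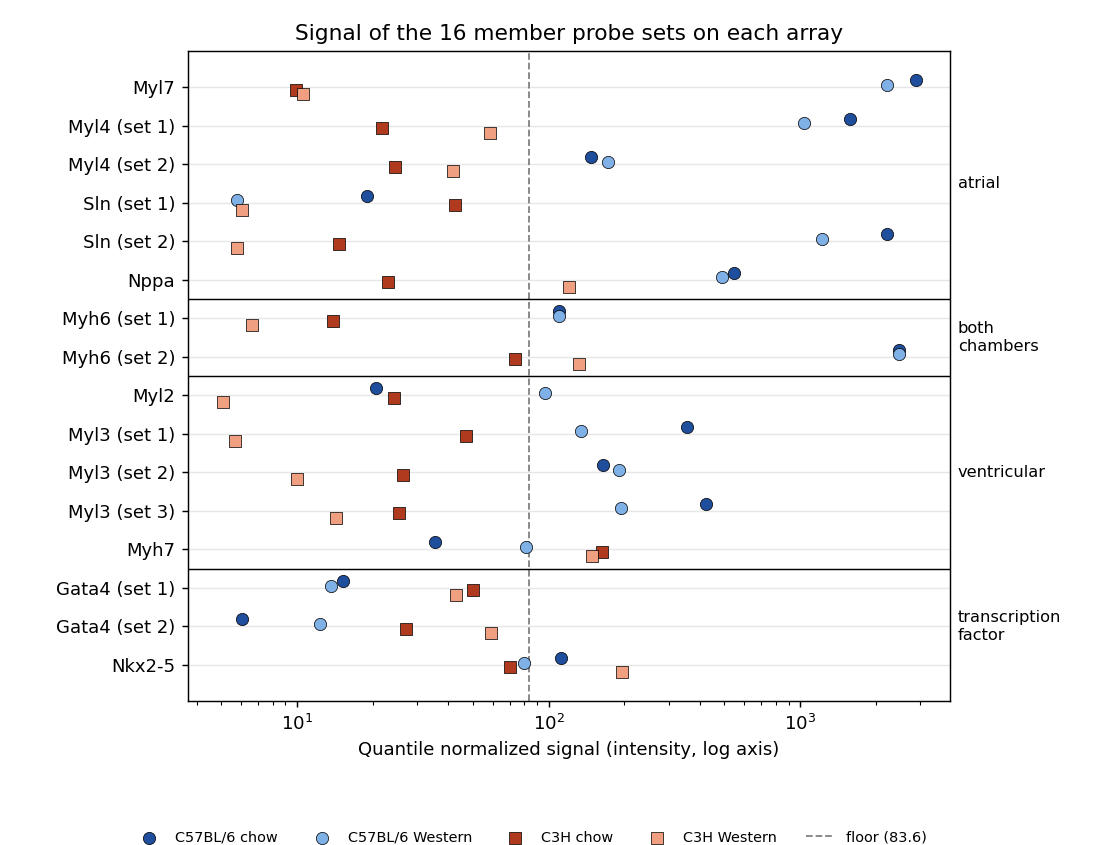
Quantile normalized signal (horizontal log axis, intensity) of each of the 16 member probe sets (rows, grouped by class), with 1 point per array and small vertical offsets for legibility. The dashed line is the floor at 83.6. The brightest sets of Myl7, Myl4, Sln and Myh6 lie at 1034 or higher on both C57BL/6 arrays and at or below 131.6 on both C3H arrays, while Myh7 lies higher in C3H.

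Ventricular genes differed among themselves in direction. The regulatory light chain Myl2 (1448394_at), the marker of ventricular muscle within the heart, was under the floor on 3 arrays, at 20.6 on C57BL/6 chow, 24.2 on C3H chow and 5.06 on C3H Western. It passed the floor narrowly on C57BL/6 Western, at 96.4, which gives at least 1.15-fold against C3H.

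Myl3, the essential light chain of the ventricle and of slow skeletal muscle, was above the floor in C57BL/6 in all 3 of its probe sets and under it in C3H. Signals of set 1428266_at were 423 and 194 on C57BL/6 chow and Western and 25.4 and 14.3 on C3H chow and Western. Set 1427768_s_at gave 355 and 135 in C57BL/6 against 46.9 and 5.68 in C3H. The third set, 1427769_x_at, gave 164 and 191 against 26.3 and 10.01. Of all probe sets, 2.53% were likewise above the floor on both C57BL/6 arrays and at or under it on both C3H arrays. The folds were at least 5.06, 4.24 and 1.96 on chow and at least 2.32, 1.61 and 2.29 on Western diet, in the order of the sets above.

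Myh7, the slow heavy chain, was the 1 member higher in C3H on both diets. It read 35.3 and 81.0 on C57BL/6 chow and Western (1448553_at), both under the floor, and 163 and 149 on C3H chow and Western. This gives at least 1.95-fold higher on chow and at least 1.78-fold higher on Western diet, short of the 2-fold used for counting on both. Of the whole array, 2.49% of probe sets were likewise above the floor on both C3H arrays and at or under it on both C57BL/6 arrays.

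Of the transcription factors, Nkx2-5 did not show the strain pattern of the atrial genes, and Gata4 carries no information on it. Gata4 was under the floor on all 4 arrays in both of its probe sets, at 15.2, 13.7, 50.1 and 42.9 (1418863_at) and at 6.06, 12.4, 27.03 and 59.0 (1418864_at) on C57BL/6 chow, C57BL/6 Western, C3H chow and C3H Western. Nkx2-5 (1449566_at) read 112 and 79.8 in C57BL/6 and 70.5 and 196 in C3H on chow and Western diet. The 2 strains overlap, with the highest signal on C3H Western. Between strains, C3H was lower on chow by at least 1.34-fold, yet higher on Western diet by at least 2.34-fold, each time with 1 array above the floor.

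Set beside the background, 13 of the 16 member probe sets were above the floor on at least 1 array and 0 on all 4. Of all 22626 probe sets, 18923 were above it on at least 1 array and 8740 on all 4. On chow, 7 of 12 member probe sets that could be compared were past 2-fold lower in C3H, where 10.8% of all probe sets were, and 0 were past 2-fold higher (10.3% of all). On Western diet 8 of 13 were lower (5.98% of all) and 1, Nkx2-5, was higher (6.04% of all). Both diets together gave 6 of 12 lower, against 1.54% of all, and 0 higher, against 1.18% of all. Of the 16, 8 were above the floor on both C57BL/6 arrays and at or under it on both C3H arrays, a pattern shown by 2.53% of all probe sets. These shares restate the contrast by which the members were picked, and nothing is read from them. In whole tissue, fewer heart muscle cells and less RNA per cell cannot be told apart.

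By class, the median log2 difference of C3H minus C57BL/6 was -4.24 on chow for 5 atrial probe sets and -1.53 for 4 ventricular ones, and on Western diet -3.63 for 5 atrial and -0.69 for 5 ventricular ones. All probe sets compared had medians of 0.02 and 0.01. Most of the ventricular sets are of Myl3, the others being Myh7 and, on Western diet alone, Myl2. With 1 probe set per gene the atrial and ventricular medians were -4.48 and -0.69 on chow. On Western diet they were -3.75 and -0.21. These differences are bounded by the floor, so a class with lower signals in C57BL/6 can only show a smaller one. Taken as measured, with no floor, the median of the atrial class minus that of the ventricular class turned from -2.94 to 1.16 on Western diet. Each Myl3 set then lay between log2 -4.57 and -3.77. The sets compared changed as well, since all 6 atrial sets then entered, among them 1420883_at of Sln at log2 0.07. On chow it was -2.71 with the floor and -2.735 without it. Since C3H signals under the floor have no order, no ranking of the atrial genes against Myl3 is drawn for either diet.

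**Figure D2:**
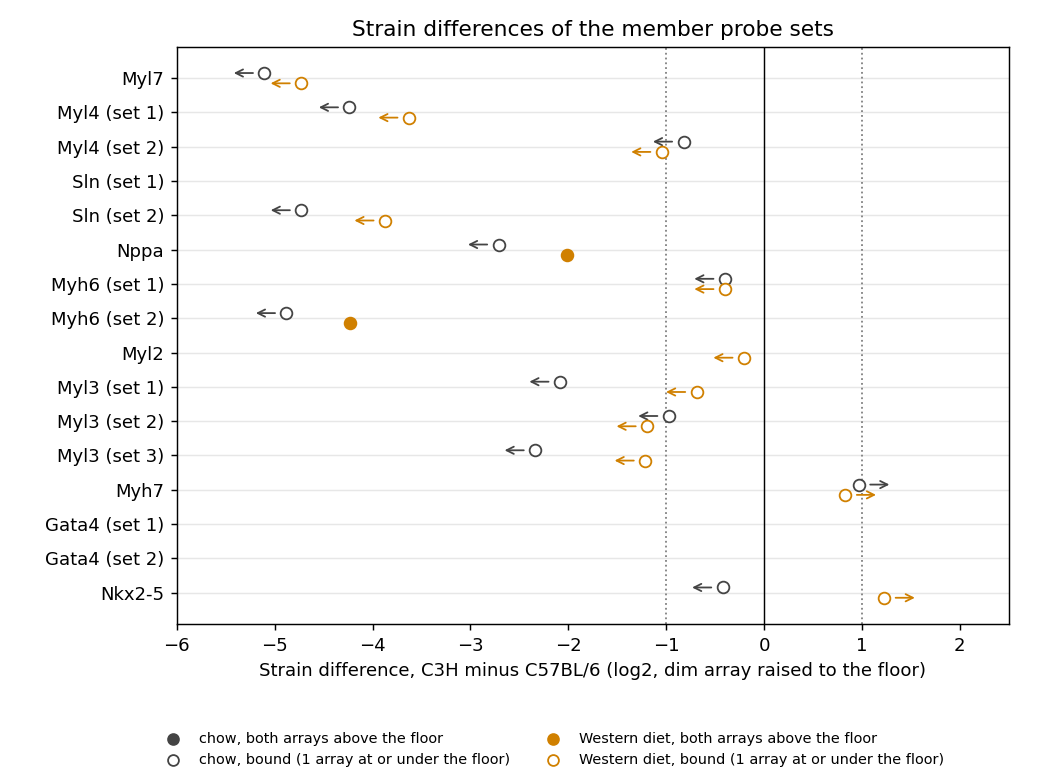
Strain difference of each member probe set (rows) as log2 of C3H minus C57BL/6, after lifting dim signals to the floor. Filled points have both arrays above the floor, open points with an arrow are bounds, and rows without a point were under the floor on both arrays. Dotted lines mark 2-fold. Bounds for Myl7, the brighter sets of Myl4 and Sln, and Myh6 on chow reach -4.24 to -5.10, and Myh7 lies to the right of 0 on both diets.

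The response to Western diet within C57BL/6 was not used to pick the members, although it shares its arrays with the strain contrast. Atrial signals differed little by comparison with the strain difference. The log2 change from chow to Western diet was -0.38 for Myl7, -0.61 and 0.22 for the 2 sets of Myl4, -0.86 for Sln, -0.17 for Nppa and 0.00 for both sets of Myh6. Myl3 gave -1.12, -1.40 and 0.22 in its 3 sets, in the order 1428266_at, 1427768_s_at and 1427769_x_at, and so disagreed with itself in sign. Of 12 member probe sets compared, 2 were past 2-fold lower on Western diet, both of them Myl3 (5.85% of all probe sets), and 0 were higher (5.84% of all). For scale, the pooled SD between probe sets of a gene in this comparison was log2 0.51 over 2197 genes, and the atrial changes other than those of Myl4's brighter set and Sln lie within it.

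On the C3H arrays 4 of the 16 member probe sets (Nppa, Nkx2-5, Myh7 and the brighter set of Myh6) were above the floor on at least 1 array and could be compared. The brighter Myh6 set went from 73.8 to 131.6 and Nppa from 23.02 to 120.5 between chow and Western diet, at least 1.57-fold and 1.44-fold higher. Nkx2-5 went from 70.5 to 196, at least 2.34-fold higher and the only member probe set past 2-fold in this direction (8.55% of all probe sets). Myh7 was at 163 and 149, a log2 change of -0.14, and 0 were past 2-fold lower (8.4% of all).

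Diet could be tested over both strains in an additive limma fit, whose only residual is the unreplicated interaction of strain and diet (1 residual degree of freedom beside a prior of 17.3). None of 14915 probe sets had an adjusted p under 0.05 in limma (0 called, 0%), and 367 had an unadjusted p under 0.05. The 12 member probe sets in the fit had limma adjusted p of 0.9996, and the lowest unadjusted p was 0.149, for set 1427768_s_at of Myl3 (log2 -2.22, SE 1.48). Sln gave log2 -1.10 (SE 0.85) and Myl7 -0.15 (SE 0.70). The fit took signals under the floor at their measured values, so these estimates mix the C57BL/6 change with C3H signals that have no order. A missed threshold in a fit this small does not show that the diets were alike. Without the floor filter 5 of 22626 probe sets passed in limma, none of them a member.

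**Figure D3:**
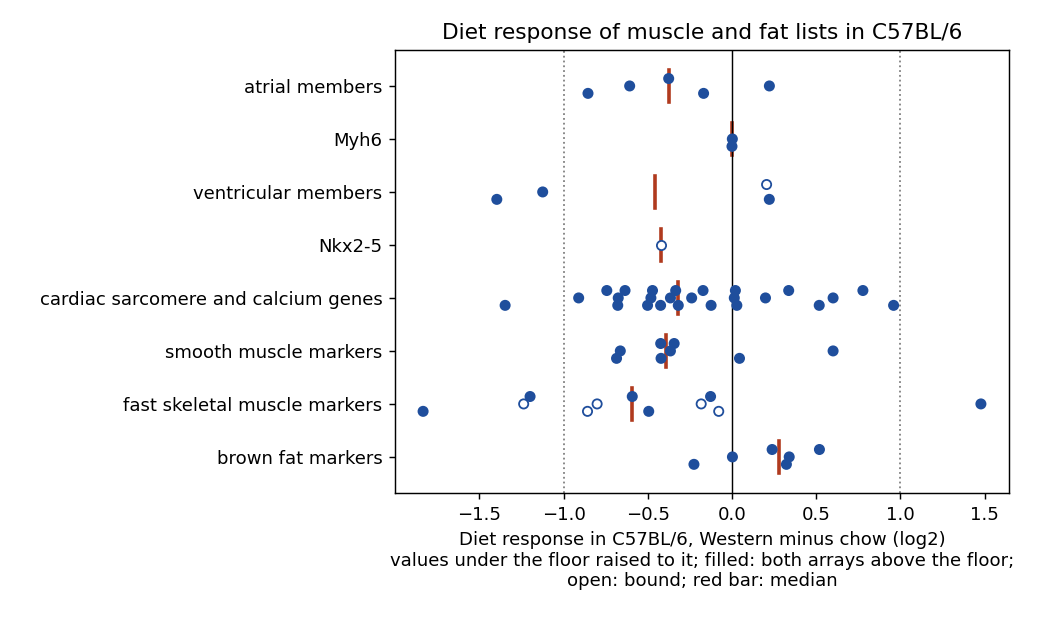
Log2 change from chow to Western diet in C57BL/6 (horizontal axis) for the probe sets of each member class and for genes of 4 lists (1 probe set per gene), with filled points where both arrays were above the floor, open points for bounds and a red bar at the median. The atrial median is -0.38 over probe sets, as plotted, and -0.49 with 1 probe set per gene. The list medians are -0.32 (cardiac), -0.39 (smooth muscle), -0.59 (fast skeletal) and 0.28 (brown fat).

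Other genes of heart muscle were then read from lists, which were written with earlier results of these arrays known. Their strain counts therefore describe the contrast by which the members were picked, and nothing is read from the shares. Of 26 cardiac sarcomere and calcium genes, 25 were above the floor on both C57BL/6 arrays and 11 on both C3H arrays. Of all 12393 genes, 6776 were above it on both C57BL/6 arrays and 6690 on both C3H arrays. On chow 17 of 25 were past 2-fold lower in C3H (10.5% of all genes) and 1 higher, the fatty acid binding protein gene Fabp3 (10.1% of all), with a median of log2 -1.74 against 0.02 for all genes. On Western diet 19 of 25 were lower (5.67% of all genes) and 0 higher (5.82% of all), with a median of -1.71 against 0.01. The calcium pump gene Atp2a2 had log2 differences of -1.94 and -1.92 on chow and Western diet. Myoglobin (Mb) had -2.51 and -3.14, and the tropomyosin gene Tpm1 had -0.93 and 0.16. Cox7a1, a respiratory chain subunit, was higher in C3H at 4380.4 and 3720.4 against 2427 and 3065. Cox7a1 and Fabp3 are also abundant in brown fat. From chow to Western diet in C57BL/6, 1 of 25 genes, Ankrd1, was past 2-fold lower (5.62% of all genes) and 0 higher (5.73% of all). In C3H, 2 of 18 were lower, Mb and the calcium-binding protein gene Hrc (8.13% of all genes), and 0 higher (8.32% of all).

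The calcium pump that sarcolipin restrains is also held back by phospholamban (Pln), which was lower in C3H by log2 -2.50 on chow and -2.32 on Western diet. Of 4 genes of the pump list compared on chow, 2 were past 2-fold lower in C3H (Atp2a2 and Pln) and 1 higher, Atp2a3, at 841 against 211. On Western diet 2 of 5 were lower, the same genes, and 0 higher. Of all genes, 10.5% were lower and 10.1% higher on chow, and 5.67% and 5.82% on Western diet. Atp2a1, the fast skeletal pump, stood at 130 and 92.1 in C57BL/6 and at 168 and 180 in C3H.

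The natriuretic peptide system was read beyond Nppa. The second cardiac natriuretic peptide gene, Nppb, read 8.09 and 19.8 in C57BL/6 and 108 and 61.5 in C3H on chow and Western diet, above the floor on C3H chow alone. Corin, the protease that processes the Nppa product, was under the floor on all 4 arrays. Over the natriuretic peptide list, 1 of 8 genes was past 2-fold lower in C3H on chow (Npr3, the clearance receptor) and 1 higher (Furin, a protease), where 10.5% and 10.1% of all genes were. On Western diet 1 of 7 was lower (Npr1, a receptor of the peptide) and 0 higher, where 5.67% and 5.82% of all genes were. With so few genes, counts of 1 are not set apart from these shares.

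Of 8 other myosin light chain and kinase genes, 7 were above the floor on each array, with Mylpf and Myl6b each under it on 2 arrays. Smooth muscle Myl9 gave 20288 and 16929 in C57BL/6 and 10160 and 18838 in C3H on chow and Western diet, and its kinase Mylk 4227 and 2432 against 1954 and 2522. Of these 8 genes, 2 were past 2-fold lower in C3H on chow (Mylk and the fast skeletal Mylpf) and 1 higher (Myl1, fast skeletal). On Western diet 0 of 8 were past 2-fold in either direction. Shares of all genes were 10.5% lower and 10.1% higher on chow, and 5.67% and 5.82% on Western diet.

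Further chamber genes and regulators were read in the same way. Of further atrial genes, 2 of 8 compared on chow were past 2-fold lower in C3H (the secreted protein gene Dkk3 and the potassium channel gene Kcnj3) and 2 higher (the potassium channel gene Kcna5 and the transcription factor gene Hey1), where 10.5% and 10.1% of all genes were lower and higher. On Western diet 0 of 7 were past 2-fold in either direction (5.67% and 5.82% of all genes). Kcnj3, an atrial channel subunit named here after its values were seen, read 223 and 86.7 in C57BL/6 and 9.84 and 55.7 in C3H. Of further ventricular genes, 1 of 7 was lower on chow (Fhl2) and 0 of 7 past 2-fold on Western diet. Of further cardiac transcription factors, 2 of 14 compared on chow were past 2-fold lower in C3H (Gata6 and Srf, log2 -1.37 and -1.13) and 1 higher (Hopx, 1.09). On Western diet 1 of 16 was lower (Srf, -1.10) and 0 higher. For the ventricular genes and these factors the shares of all genes are those given above. Tbx5 stayed near the floor on all arrays, at 83.8, 80.3, 51.0 and 100.1 on C57BL/6 chow, C57BL/6 Western, C3H chow and C3H Western.

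Since Myl3 and Myh7 are also genes of slow skeletal muscle, its markers were read beside them. Of 6 slow skeletal genes, 4 were above the floor on both C57BL/6 arrays (Tpm3, Myoz2, Tnnc1 and Casq2) and 2 of them on both C3H arrays (Tpm3 and Myoz2). Of all 12393 genes, 6776 were above it on both C57BL/6 arrays and 6690 on both C3H arrays. On chow 3 of 4 were past 2-fold lower in C3H (10.5% of all genes) and 0 higher (10.1% of all). Myoz2, a Z-disc protein gene of slow and heart muscle, read 1047 against 369, and the slow and cardiac genes Tnnc1 and Casq2, which are also in the cardiac list, were lower as well. On Western diet 2 of 4 were lower (Tnnc1 and Casq2) and 1 higher (Tpm3), where 5.67% and 5.82% of all genes were. Tnnt1 and Tnni1, the slow skeletal troponins, were under the floor on all 4 arrays. Fast skeletal markers were above the floor in 11, 6, 9 and 10 of 15 genes on C57BL/6 chow, C57BL/6 Western, C3H chow and C3H Western. Of all 12393 genes, 8137, 8100, 8170 and 8144 were above it on these arrays. The summed signals of the fast skeletal markers were 2458, 1472, 1870.0 and 1895. These sums overlap between the strains, and single genes went both ways. Ckm, the muscle creatine kinase gene that heart muscle also uses, read 414 and 275 in C57BL/6 and 113 and 93.9 in C3H on chow and Western diet, 3.68-fold and 2.93-fold lower in C3H. Myoz1, a Z-disc protein gene of fast muscle, was under the floor on both C57BL/6 arrays and read 84.1 and 194 in C3H. Over the list, 3 of 13 genes were past 2-fold lower in C3H and 1 higher on chow (10.5% and 10.1% of all genes). On Western diet 1 of 10 was lower and 1 higher (5.67% and 5.82% of all genes). With so few genes, these fast skeletal counts are not set apart from the shares.

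Smooth muscle, fibroblast and brown fat sums lay further apart between the strains on chow than on Western diet, and endothelial and erythroid sums did not. The summed signal of 4 atrial genes was 7213 and 4961 in C57BL/6 and 69.4 and 196 in C3H (chow first, Western second). Of the 4, 0 and 1 were above the floor on these C3H arrays. Smooth muscle markers summed to 99189 and 74981 in C57BL/6 and to 43743 and 70852 in C3H, and fibroblast markers to 59859 and 22286 against 15489 and 29786. A sum is weighted towards its brightest probe sets, such as Acta2 at 54541 within the smooth muscle sum on C57BL/6 chow. Brown fat markers summed to 40699 and 46833 against 80672 and 53886, and endothelial markers to 4805 and 5821 against 4638 and 5232. On chow the smooth muscle, fibroblast and brown fat sums thus also lay apart between the strains, and their part in the heart muscle difference there was not tested. Of mesothelial and epicardial markers, Wt1, Msln and Tcf21 were under the floor on every array, Tbx18 was slightly above it on 3 (86.6 on C57BL/6 chow, 98.8 on C3H chow and 90.4 on C3H Western) and Upk3b on 1 (90.2 on C57BL/6 Western). The cardiac marker list itself separated the strains at 38598 and 32876 against 16127 and 14007. Of erythroid genes, Alas2 was highest on C3H Western at 2116, against 143 to 304 on the others, whereas Slc4a1 read 44.5 and 60.2 in C57BL/6 and 146 and 128 in C3H on chow and Western diet.

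**Figure D4:**
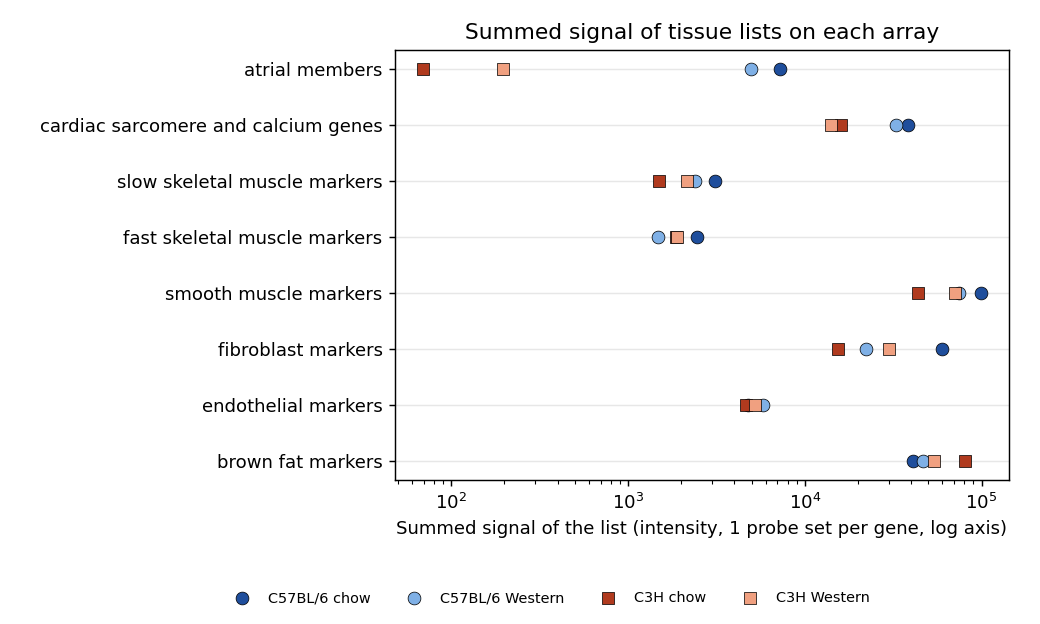
Summed quantile normalized signal of each list (horizontal log axis, intensity, 1 probe set per gene), with 1 point per array. The atrial genes lie at 4961 and 7213 in C57BL/6 and at 69.4 and 196 in C3H, where they are mostly under the floor, and the smooth muscle sums on Western diet lie at 74981 and 70852.

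Among 12393 genes, those whose pattern over the 4 arrays was most like the mean of the atrial members were found by the root mean square difference of centred log2 signals, raised to the floor. Closest of the 10 genes outside the members were the cardiac troponin genes Tnni3 (0.0552) and Tnnt2 (0.207), followed by Pttg1 (0.247), which encodes securin, the MHC class I gene H2-K1 (0.273), Cox6a2 (0.315) and the troponin gene Tnnc1 (0.355). Rpgrip1 (0.468), Ankrd1 (0.481), Fez1 (0.584) and the mitochondrial creatine kinase gene Ckmt2 (0.605) completed them. Of these 10, 6 belong to the cardiac list, and Pttg1, H2-K1, Rpgrip1 and Fez1 do not. The atrial members themselves lay at 0.0656 (Myl4), 0.250 (Sln), 0.523 (Myl7) and 0.779 (Nppa) from their mean, and Myh6 at 0.424. Myl3 lay at 1.07, Myl2 at 1.90, Gata4 at 1.95, Nkx2-5 at 2.18 and Myh7 at 2.40. The mean atrial profile, in log2 around 0, was 2.19 and 1.69 on C57BL/6 chow and Western and -2.005 and -1.87 on the C3H arrays, so likeness over these 4 arrays mostly ranks the strain contrast, and it was not tested.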

How the data were processed

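Biotin-labelled cRNA from 8 ug of total RNA was hybridised to 1-colour Affymetrix arrays, per the labels' protocols. The authors deposited linear intensities of 22690 probe sets, of which 64 controls were left out. Per the labels the software behind them is not stated. Trimmed means of the deposited arrays were equal (250.1) and medians ranged from 110.3 to 128.1. Log2 values were quantile normalized, and the floor was set at their 40th percentile. The platform's annotation names 1 gene for 20380 probe sets, several for 691 and none here for 1555. RefSeq tables gave promoters and updated 0 symbols.

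Differences between 2 arrays were counted at 2-fold where either array exceeded the floor, with no test. Diet was tested with limma 3.58.1 (R 4.3.3), strain as covariate, mean trend and Benjamini-Hochberg adjustment, over those probe sets with 2 or more arrays above the floor. The fit was also run on simulated data, in which few changes were called. Those data were additive, with independent noise of equal spread for all probe sets. They therefore cannot check the mean trend or the use of the interaction as residual. Lists took each gene's brightest probe set by mean log2, and up to 5 genes with the highest mean were named, besides those behind a small count. The members and lists were chosen with earlier results of these data known. As alternatives, scaling was left as deposited, set to equal medians or done by cyclic loess. The floor was moved to the 25th or 60th percentile or dropped, thresholds of 1.5-fold and 3-fold were used, and each gene was given 1 probe set. Python 3.11.15, numpy 2.4.6, pandas 2.3.3 and matplotlib 3.10.9 did the rest.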

Additional observations from a re-analysis of the deposited data

Results flagged for a closer look

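Nkx2-5 differed between the strains in opposite directions on the 2 diets, by log2 -0.42 on chow and 1.23 on Western diet (C3H minus C57BL/6). Its response to Western diet was likewise opposite, -0.42 in C57BL/6 and 1.23 in C3H. The numbers coincide because the array of each pair that lay under the floor was raised to it. Nppa went from chow to Western diet by -0.17 in C57BL/6 and by at least 0.53 in C3H. With 1 array per group these differences of direction were not tested.

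The 2 probe sets that name both Myh6 and Myh7, and so entered no comparison, carried signal in C57BL/6. The brighter one (1448554_s_at) gave 2628 on chow and 1795 on Western diet, against 12.6 and 17.8 in C3H, and the dimmer one (1448827_s_at) gave 161 and 180.8, against 6.04 and 39.3. The 2 heavy chains cannot be told apart in these sets.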

How the results depend on the processing

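Deposited values, equal array medians and cyclic loess moved none of 41 member differences each beyond the spread between probe sets of a gene. Floors at the 25th and 60th percentile moved 20 of 41 and 17 of 29, and no floor moved 20 of 41, and none of these changed the sign of a difference past 2-fold. Main counts of member probe sets past 2-fold were 7 lower and 0 higher in C3H on chow, 8 and 1 on Western diet, 2 lower and 0 higher with Western diet in C57BL/6, and 0 and 1 in C3H. On chow 1 was higher with deposited values (Myh7), the 25th percentile floor or 1.5-fold, and 4 with no floor. On Western diet 5 were lower with the 60th percentile floor or 3-fold, and 0 higher with either, 2 with 1.5-fold and 3 with no floor. In C57BL/6, 2 were higher with Western diet at the 25th percentile floor and 3 with no floor, while 4 were lower at 1.5-fold, 0 at 3-fold and 1 with 1 probe set per gene. In C3H, 2 were higher at the 25th percentile floor or 1.5-fold, 0 at the 60th percentile floor or 3-fold, and 4 higher and 6 lower with no floor. The atrial minus ventricular median on Western diet (-2.94) was -2.09 at the 25th percentile floor, 1.16 with no floor and -3.55 with 1 probe set per gene, which gave -3.80 on chow (main -2.71). Without a floor, signals near background enter these medians, and so do probe sets under the floor on every array. The limma diet term gave 5 calls with no filter. Signals at or under the floor limit every C3H value, and a block by replicate number could not be fitted, as each group has 1 array.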
